A study of Mus musculus with 3 samples.

Results

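The open chromatin around 6 genes of the formative and primed states of pluripotency, Fgf5, Otx2, Pou3f1, Dnmt3a, Dnmt3b and Zic2, was examined in mouse embryonic stem cells by ATAC-seq, in which the Tn5 transposase cuts and tags accessible DNA. All peaks of the 3 deposited peak lists whose midpoint lay inside one of these genes or within 50 kb of it were taken, on the positions of RefSeq genes in the assembly GRCm38. This rule found 64 of the 88898 peaks of the Halo-Sox2 list, 62 of the 83995 peaks of the Halo-Sox2a list and 62 of the 72638 control peaks. Merging overlapping peaks gave 92 regions, out of 130664 in the genome.

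Each group was a single library of cells derived from the CGR8 line, cultured with serum, leukaemia inhibitory factor (LIF), the kinase inhibitor CHIR99021 and the MEK inhibitor PD184352. The line SES4.1 expressed Sox2, a pluripotency transcription factor, fused to a Halo tag after 20 h with 300 ng/mL doxycycline. The line SES5.1 expressed Halo-Sox2a, whose difference from Sox2 the labels leave undescribed, after 20 h with 70 ng/mL doxycycline. Both were stained through the tag and sorted in the same intensity gate, which makes them a selected part of their cultures. The control line SES11 carried no inducible transgene, and its doxycycline, staining and sorting are not given in the sources used here. Sequencing depth is unknown and no group had a replicate, so no test between groups was possible and each difference below is one between single libraries. Where a list has no peak, the site may still have been open below the threshold used by the authors.

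Mouse embryonic stem cells in LIF and kinase inhibitors resemble the naive epiblast. On the way to lineage commitment they pass through a formative and then a primed state, in which naive factors are lost and genes such as the 6 studied here are switched on. Sox2 is present in all of these states and binds DNA together with partners of the POU family. As a check of the cell type, a peak lay within 1 kb of an end of 5 of 7 embryonic stem cell genes in the Halo-Sox2 list (not Nanog and Esrrb) and of 6 of 7 in each of the other lists (not Esrrb). Over the genes with such a peak, the median percentile by score was 75.8 with Halo-Sox2, 83.7 with Halo-Sox2a and 64.5 in the control. These medians come from lists of different length and partly different genes, so they cannot be set against each other. The percentile is the place of a peak among all peaks of its own list by the authors' score, with the highest score at the top. Peaks also lay at the ends of all 4 fibroblast, 4 endoderm and 4 neural progenitor genes in every list, with medians between 26.5 and 54.0, so that a peak at a gene end did not separate cell types.

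The RefSeq promoter table (GRCm38.p6) held start sites for 4 of the 6 genes, Fgf5, Otx2, Dnmt3a and Dnmt3b, with 9 start sites in all. The 250 bases before 4 of them, which a peak of both transgene lists reached, are shown so that their base composition and Sox motifs can be compared. The sequences run 5′ to 3′ on the strand of the gene, which is plus for all 4, and capitals mark the Sox core ACAAAG, found in 2 of them.
Fgf5, chr5:98253934-98254183: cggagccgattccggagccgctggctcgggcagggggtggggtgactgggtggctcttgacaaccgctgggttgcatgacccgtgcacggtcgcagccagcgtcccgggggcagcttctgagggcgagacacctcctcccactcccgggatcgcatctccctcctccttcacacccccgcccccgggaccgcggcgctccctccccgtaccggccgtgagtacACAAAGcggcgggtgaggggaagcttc
Dnmt3a, first start, chr12:3806730-3806979: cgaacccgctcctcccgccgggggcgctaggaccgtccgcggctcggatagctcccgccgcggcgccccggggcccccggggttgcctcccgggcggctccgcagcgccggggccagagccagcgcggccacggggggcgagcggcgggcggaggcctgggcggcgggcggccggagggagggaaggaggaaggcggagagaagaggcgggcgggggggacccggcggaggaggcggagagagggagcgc
Dnmt3a, internal start, chr12:3891494-3891743: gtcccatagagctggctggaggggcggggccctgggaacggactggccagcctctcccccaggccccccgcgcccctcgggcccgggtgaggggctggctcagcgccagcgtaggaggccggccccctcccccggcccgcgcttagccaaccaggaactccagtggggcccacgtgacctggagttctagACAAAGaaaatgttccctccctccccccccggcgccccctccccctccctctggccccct
Dnmt3b, chr2:153649199-153649448: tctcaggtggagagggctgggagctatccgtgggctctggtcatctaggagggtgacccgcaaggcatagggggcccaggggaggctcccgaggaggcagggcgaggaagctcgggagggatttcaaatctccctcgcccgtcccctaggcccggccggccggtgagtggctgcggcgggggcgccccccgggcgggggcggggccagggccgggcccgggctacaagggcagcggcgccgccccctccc

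CpG pairs were frequent in 3 of the 4 printed sequences, with 24 before Fgf5, 38 before the first start of Dnmt3a and 21 before Dnmt3b, against a median of 6 and an upper quartile of 16 over the 32851 start sites of the table. The internal start of Dnmt3a had 15, and the 4 starts of Otx2 had between 6 and 14. On either strand, ACAAAG was present once before Fgf5 and once before the internal start of Dnmt3a, and in none of the other 7 windows of these genes, against 16.5% of all windows. The Sox core ACAATG was in no window of these genes and in 10.7% of all windows. The octamer ATGCAAAT, the POU site, was in none of them and in 1.6% of all windows. A composite Sox-Oct motif was also in none of them, and it occurred in 2 of all 32851 windows. A missing motif says only that these letters are not in this window.

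The largest class of regions near the 6 genes was common to all libraries. Of the 92 regions, 41 (44.6%, Wilson 95% interval 34.8 to 54.7%, counting error only) were held by all 3 lists, against 32.1% of all regions and 34.8% of the regions near any protein-coding gene. This share was 33.9% when only regions with one of the 6 as the nearest protein-coding gene were counted. Regions with a Halo-Sox2 peak and no control peak numbered 20 (21.7%, 14.5 to 31.2%), against 33.3% of all regions. Regions with a Halo-Sox2a peak and no control peak numbered 14 (15.2%, 9.29 to 23.9%), against 21.2% of all regions. With lists of equal size there were 7 of 81 (8.64%, against 17.1%), but within 20 kb the share was 21.8% and by nearest gene 21.4%, both against 21.2%. In the other direction, 20 control regions (21.7%) had no Halo-Sox2 peak, against 20.5% of all regions. That order turned within 20 kb (20.0%, against 20.5%) and for peaks of at least 2 times the lowest score (16.9%, against 19.6%). A further count of 15 control regions (16.3%) had no Halo-Sox2a peak, against 12.1%, and above percentile 25 this turned to 9.38%, against 10.8%. All of these counts use the same control list. Neighbouring regions of a locus are not independent, and Dnmt3a with 25 regions and Dnmt3b with 22 weigh most.

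By the lists that held them, 16 regions were of Halo-Sox2 only, 10 of Halo-Sox2a only, 14 of the control only and 4 of both transgene lists without the control. These were 17.4%, 10.9%, 15.2% and 4.35% of the 92, against 24.3%, 12.2%, 10.2% and 8.95% of all regions. A further 6 were of Halo-Sox2a with the control (6.52%, against 10.3% of all regions) and 1 of Halo-Sox2 with the control (1.09%, against 1.9%). Regions of a single list were mostly of low score. The median percentile was 27.2 for Halo-Sox2 only, 11.5 for Halo-Sox2a only and 9.91 for the control only, and 38.7, 19.4 and 18.5 for the same classes over the genome. Regions without a control peak and at percentile 75 or above in the Halo-Sox2 list numbered 4 (4.35%, against 5.92% of all regions). Of these, 2 near Dnmt3a were of Halo-Sox2 only, and 1 inside Dnmt3a and 1 near Fgf5 were in both transgene lists. By the same limit in the Halo-Sox2a list there was 1 (1.09%, against 0.787%), the region near Fgf5. Of the 30 regions with a transgene peak and no control peak, 1 had a control peak within 500 bp, and the median gap to the nearest control peak was 3214 bp.

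**Figure D1:**
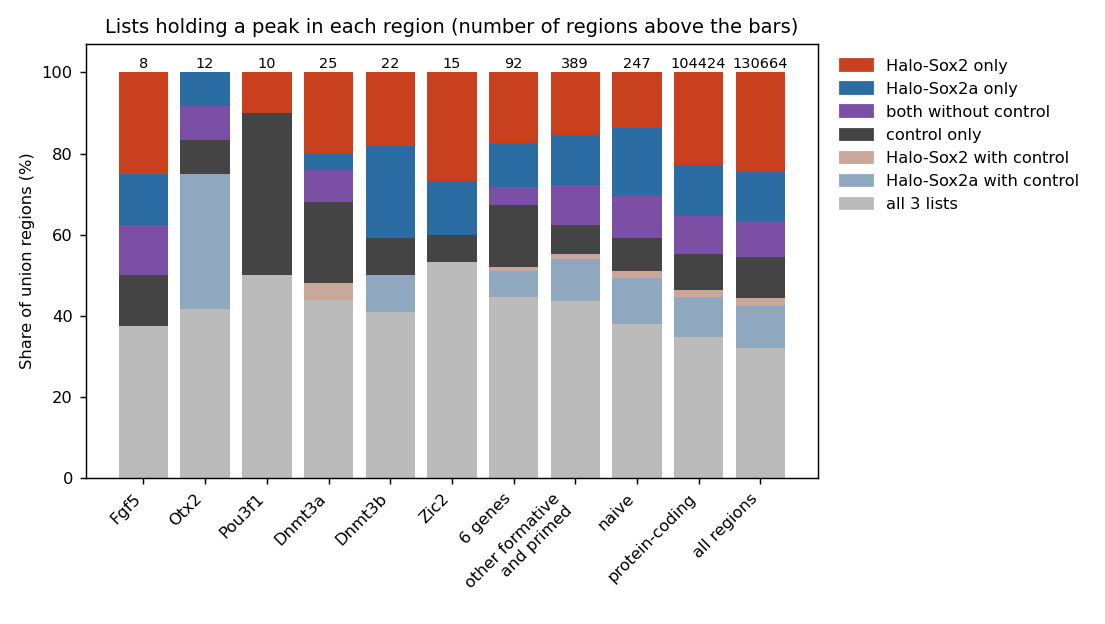
Share of union regions (vertical axis, %) by the lists that hold a peak there, for each gene, for the 6 genes together, for 24 other formative and primed genes, for 14 naive genes, for all protein-coding genes and for all regions, with the number of regions above each bar. Otx2 has no region of Halo-Sox2 only, Pou3f1 has 4 of 10 regions in the control only, and Zic2 has 8 of 15 regions in all 3 lists.

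Percentiles from lists of different length cannot be set against each other. The 41 regions held by all 3 lists were therefore ranked again among the 41984 regions of the genome held by all 3, so that each library ranked the same regions. This place is called the shared percentile below. Its median over the 41 regions was 37.8 with Halo-Sox2, 38.75 with Halo-Sox2a and 39.3 in the control. The median difference from the control was -3.40 points for Halo-Sox2, with a range from -45.05 to 48.29, against a median of -1.60 over all shared regions. It was -1.12 points for Halo-Sox2a, with a range from -41.34 to 38.26, against -0.51. The 95% intervals of these medians were -8.41 to 7.43 and -10.15 to 4.82. They take the 41 regions as independent, which neighbours at a locus are not. With a single library per group, they cannot say whether the libraries differ. Within 20 kb the medians were -6.91 and -8.32, and by nearest gene -8.30 and -7.91, with the genome at the same values as before. The differences had an SD of 18.95 points for Halo-Sox2 and 17.2 for Halo-Sox2a, against 26.6 and 20.9 over all shared regions.

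Shifts of 20 points or more were no more frequent near these genes than over the genome. Against the control, Halo-Sox2 was higher by that much in 6 of 41 regions (14.6%, against 17.5% of all shared regions) and lower in 5 (12.2%, against 18.6%). Halo-Sox2a was higher in 4 (9.76%, against 14.1%) and lower in 4 (9.76%, against 14.2%). In 23 of the 41 neither library was that far from the control, and 1 region was higher by that much with both proteins, the internal start of Dnmt3a.

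**Figure D2:**
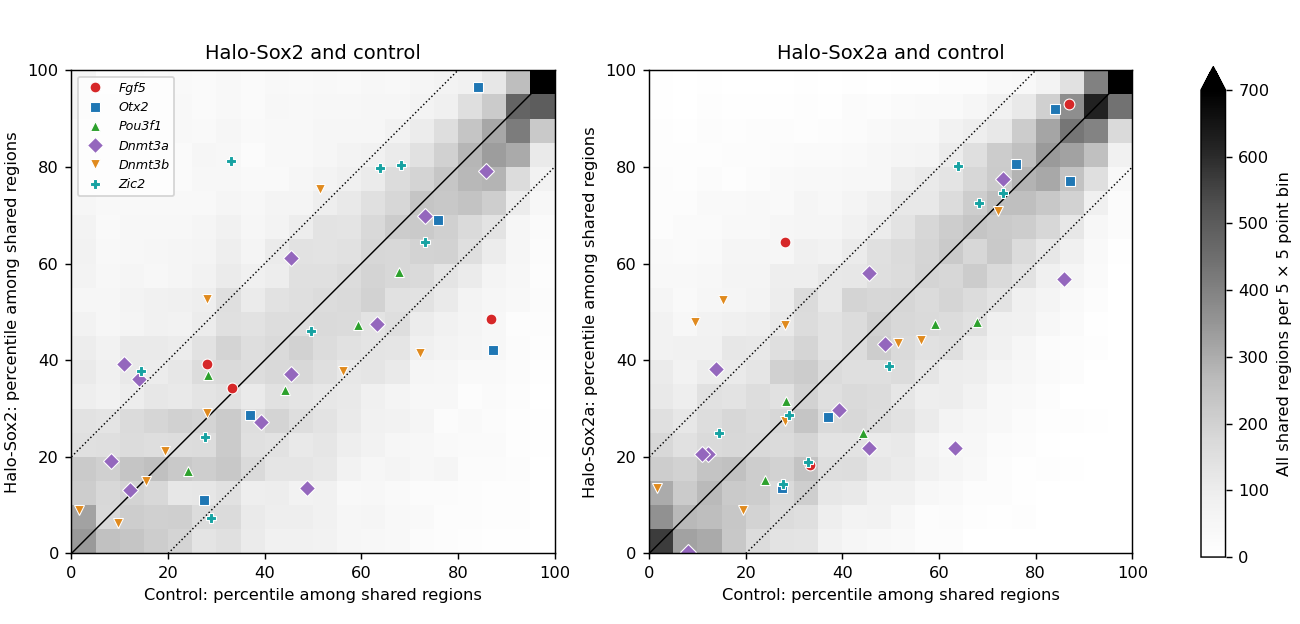
Percentile of each region among the regions held by all 3 lists, in the control (horizontal axis, 0 to 100) and in Halo-Sox2 or Halo-Sox2a (vertical axis, 0 to 100). Grey shading counts all 41984 shared regions per bin, the solid line marks equal percentiles, dotted lines mark differences of 20 points, and coloured points are the 41 regions near the 6 genes. With Halo-Sox2 a region of the Zic2 window lies far above the line, and an Fgf5 and an Otx2 region lie far below it.

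Fgf5 encodes a secreted fibroblast growth factor and is a standard marker of the primed epiblast. It lies on chromosome 5 from 98254184 to 98277033, has no other protein-coding gene within 50 kb, and had 8 regions, a number between the quartiles of 6 and 15 over protein-coding genes. One region stood out, 39.2 kb downstream of the start and 16.3 kb beyond the end of the gene (98292825 to 98293854, 1030 bp, in no RefSeq gene). With Halo-Sox2 it had a score of 1069, rank 1034 and percentile 98.8. With Halo-Sox2a it had a score of 359, rank 9334 and percentile 88.9. The control list had no peak there, and its nearest peak was 8845 bp away, a low one of score 20 at percentile 3.32. Of the 92 regions this had the highest percentile in the Halo-Sox2 list, and of the regions without a control peak it also had the highest percentile with Halo-Sox2a.

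The other regions of Fgf5 had other patterns. The region over its start (98253966 to 98254881), which overlaps the printed sequence, had scores of 136 with Halo-Sox2, 88 with Halo-Sox2a and 93 in the control. Its shared percentiles were 34.3, 18.3 and 33.3 in the same order, so Halo-Sox2 was level with the control and Halo-Sox2a lower. A region 1.89 kb into the gene (98255734 to 98256423) had scores of 202, 579 and 314. Its shared percentiles were 48.4, 93.0 and 86.8, high in the control and with Halo-Sox2a and lower with Halo-Sox2. A distal region 56.3 kb from the start (98309954 to 98310929) had scores of 155, 263 and 81. It stood at shared percentiles of 39.1, 64.6 and 28.0, highest with Halo-Sox2a. The 4 remaining regions were peaks of single lists at percentiles of at most 26.4.

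Otx2 encodes a homeodomain transcription factor that drives the exit from the naive state. It lies on chromosome 14 from 48656781 to 48667644 on the minus strand, so its most upstream start is at 48667644, and the lncRNA gene Otx2os1 lies upstream of it. It had 12 regions, 5 of them in all 3 lists. It was the one locus of the 6 without a region of Halo-Sox2 only, while 4 regions were held by Halo-Sox2a and the control together, a class with 2 other regions near these genes, both near Dnmt3b. Those 4 were at percentiles from 6.31 to 33.3 with Halo-Sox2a and from 22.5 to 39.6 in the control. One of them (48668739 to 48669173) lay 1.31 kb upstream of the gene. A single weak region (48652442 to 48652750) was in both transgene lists and not in the control, with scores of 55 and 38, and the nearest control peak was 530 bp away.

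The Otx2 region with the highest score in both transgene lists lay 33.6 kb upstream of the gene within Otx2os1 (48700670 to 48701729). It had scores of 931 with Halo-Sox2, 552 with Halo-Sox2a and 288 in the control, and shared percentiles of 96.6, 92.0 and 84.1. It was high in all 3 libraries, although in the control its neighbour scored higher. This neighbour, 42.1 kb upstream (48709466 to 48710078), had scores of 170, 349 and 318. On the shared scale it was at 42.1, 77.0 and 87.2, the largest drop with Halo-Sox2 of the 41 regions. The region beyond the downstream end (48653688 to 48655636) was at 69.0, 80.7 and 75.9. None of the 4 annotated starts of Otx2 lay inside a peak of the Halo-Sox2 or control list. The most upstream start was 647 bp from the nearest peak with Halo-Sox2 and 674 bp from it in each of the other lists. An internal start lay in a peak of Halo-Sox2a only (48662289 to 48662943, score 32, percentile 11.5).

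Pou3f1 encodes Oct6, a POU factor of the primed epiblast. It lies on chromosome 4 from 124657646 to 124660655 and had 10 regions, 5 of them in all 3 lists. Its window also holds the protein-coding genes Utp11 and Fhl3 and the lncRNA gene Gm2164. A single region had a transgene peak without a control peak, a Halo-Sox2 peak of score 70 at percentile 22.7 (124653104 to 124653605), and 4 were of the control only. The highest of those was 7.74 kb beyond the gene (124668208 to 124668575), with a score of 76 and percentile 46.5. The region at the lower-coordinate end of the gene (124656812 to 124657607) had scores of 194 with Halo-Sox2, 183 with Halo-Sox2a and 160 in the control. It was at shared percentiles of 47.3, 47.6 and 59.2. The region over the gene body (124658054 to 124659494) had scores of 79, 79 and 74 and shared percentiles of 17.1, 15.2 and 24.1. In 4 of the 5 shared regions both transgene libraries were below the control, by up to 20.0 points with Halo-Sox2a in a region inside Utp11 (124693157 to 124693913, scores of 263, 184 and 193).

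Zic2 encodes a zinc-finger transcription factor that acts in the formative epiblast and the early neural plate. It lies on chromosome 14 from 122475384 to 122480328 beside Zic5 and Pcca, and had 15 regions, of which 8 were in all 3 lists. Counting only regions with Zic2 as the nearest protein-coding gene left 4. The broad region at its lower-coordinate end (122473841 to 122476038, 2198 bp) has its midpoint just outside Zic2, inside the gene 2610035F20Rik. It had scores of 475 with Halo-Sox2, 314 with Halo-Sox2a and 195 in the control. Its shared percentiles of 80.4, 72.6 and 68.2 were the highest of any gene-end region of the 6 genes in each library. The region with the largest rise with Halo-Sox2 of the 41 lay at -22.0 kb from that end, outside genes (122452815 to 122453965). It is nearer to Zic5, which spans 122459160 to 122465658, than to Zic2. It had scores of 488, 91 and 92, and shared percentiles of 81.2, 18.9 and 33.0, so that Halo-Sox2 stood apart from both other libraries. The Halo-Sox2 peak spanned the whole region, while the peaks of Halo-Sox2a and the control began only at 122453455 and 122453538. The scores therefore cover unlike stretches.

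Other Zic2 regions moved less. A region between Zic5 and Zic2, nearer to Zic5 (122468054 to 122469299), was at shared percentiles of 37.8, 25.0 and 14.5, also highest with Halo-Sox2. A region inside the lncRNA gene Gm5089 (122449970 to 122451305) was at 7.29, 28.7 and 29.0, lowest with Halo-Sox2. The 4 regions of Halo-Sox2 only were at percentiles between 5.81 and 61.5. The highest of them lay at -47.6 kb inside Gm5089 (122427536 to 122427977, score 209). The 2 regions of Halo-Sox2a only had scores of 64 and 31, and the 1 region of the control only had a score of 20.

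Dnmt3a encodes a de novo DNA methyltransferase. It is the longest of the 6 genes, on chromosome 12 from 3801559 to 3914443, and had 25 regions, more than 96.2% of protein-coding genes. Of these, 11 were in all 3 lists, 7 had a Halo-Sox2 peak and no control peak, 3 had a Halo-Sox2a peak and no control peak, and 5 were of the control only, all 5 at percentiles of at most 25.9. The highest region without a control peak lay inside the gene, 21.7 kb from its lower-coordinate end (3822730 to 3823887, 1158 bp). It had a score of 813, rank 3230 and percentile 96.4 with Halo-Sox2, and a score of 187 and percentile 71.5 with Halo-Sox2a. The nearest control peak was 1571 bp away, in a separate region (3825368 to 3826162) with scores of 67 with Halo-Sox2, 166 with Halo-Sox2a and 128 in the control. The shared percentiles of that neighbour were 13.5, 43.4 and 48.8. The Halo-Sox2 library thus had a high peak in the first region and a low one in the second, and the control had a peak in the second alone.

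The next highest regions near Dnmt3a without a control peak were of Halo-Sox2 only. One lay inside the neighbouring gene Dtnb (3756301 to 3756917, score 418, percentile 82.9), and one 27.9 kb beyond the end of Dnmt3a, outside genes (3941989 to 3942761, score 366, percentile 79.1). The region before the first start in the promoter table (3806078 to 3806855) had scores of 195 with Halo-Sox2, 99 with Halo-Sox2a and 175 in the control. Its shared percentiles were 47.4, 21.9 and 63.2, the largest drop with Halo-Sox2a of the 41 regions. Its peaks ended 246, 125 and 325 bp before that start, which lies at 3806980, inside the gene and not at its lower-coordinate end. The printed sequence was chosen because the peaks of both transgene lists reached it, so their overlap with it is no result. The control peak ended at 3806655, shortly before the sequence begins at 3806730. The region over the internal start (3891164 to 3892617) had scores of 140, 149 and 53. The shared percentiles were 36.0, 38.3 and 13.9, higher with both proteins than in the control. Its peaks overlapped the printed internal sequence in all 3 lists. The peaks of both transgene lists cover the marked Sox core, and the shorter control peak ended a few bases before it, at 3891672. Whether the core bears on the difference was not tested. The lncRNA gene Gm31623 overlaps this region.

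Of the other shifts of 20 points or more near Dnmt3a, a region inside the gene (3807874 to 3808878) was at shared percentiles of 39.3 with Halo-Sox2, 20.6 with Halo-Sox2a and 10.9 in the control. Lower with Halo-Sox2a were a region upstream of the gene (3791804 to 3792460), at 79.2, 56.7 and 85.8, and a region inside it (3870917 to 3872003), at 37.2, 21.9 and 45.5. One region (3889811 to 3890322) was the only one of the 92 held by Halo-Sox2 and the control and not by Halo-Sox2a, with scores of 42 and 109. This class was rare over the genome too, at 1.9% of all regions.

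Dnmt3b encodes the other de novo DNA methyltransferase, which is the more abundant one in the early epiblast. It lies on chromosome 2 from 153649411 to 153687730 and had 22 regions, 9 of them in all 3 lists. Commd7 lies in the same window, and 12 regions had Dnmt3b as the nearest protein-coding gene. The region over its start (153649062 to 153650523), which overlaps the printed sequence, had scores of 117 with Halo-Sox2, 113 with Halo-Sox2a and 81 in the control. This placed it at shared percentiles of 29.0, 27.4 and 28.0, within 0.97 points of the control in both transgene libraries. Dnmt3b had the most regions of Halo-Sox2a only, 5, and 4 of them lay inside the gene, where no list had any other peak beyond the start region. They had scores of 99, 20, 19 and 13, and the highest (153651696 to 153652102) was at percentile 48.9. Of the 4 regions of Halo-Sox2 only, the highest (153722666 to 153723366, score 284, percentile 71.2) lay 35.3 kb beyond the gene, inside the pseudogene Dnmt3b-ps1. How reads with more than 1 possible position were placed is not given in the sources used here.

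Upstream of Dnmt3b, 2 regions stood out with Halo-Sox2a. One at -36.9 kb from the start (153611839 to 153613174) had scores of 46 with Halo-Sox2, 184 with Halo-Sox2a and 44 in the control. Its shared percentiles were 6.40, 47.8 and 9.55, the largest rise with Halo-Sox2a of the 41 regions. The other, at -9.96 kb (153639039 to 153639862), had scores of 71, 202 and 58 and shared percentiles of 15.0, 52.4 and 15.4. In both, Halo-Sox2 and the control lay close together. The Halo-Sox2a peak spanned each of these regions whole, and the peaks of the other lists only part of them. The scores therefore cover unlike stretches. With Halo-Sox2, higher values than in the control were seen in 2 other upstream regions (153609703 to 153610079, at 52.6, 47.4 and 28.0, and 153622185 to 153623127 inside Commd7, at 75.4, 43.7 and 51.5). A region at -6.77 kb (153641845 to 153643430) was lower with Halo-Sox2, at 41.4, 71.0 and 72.1.

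**Figure D3:**
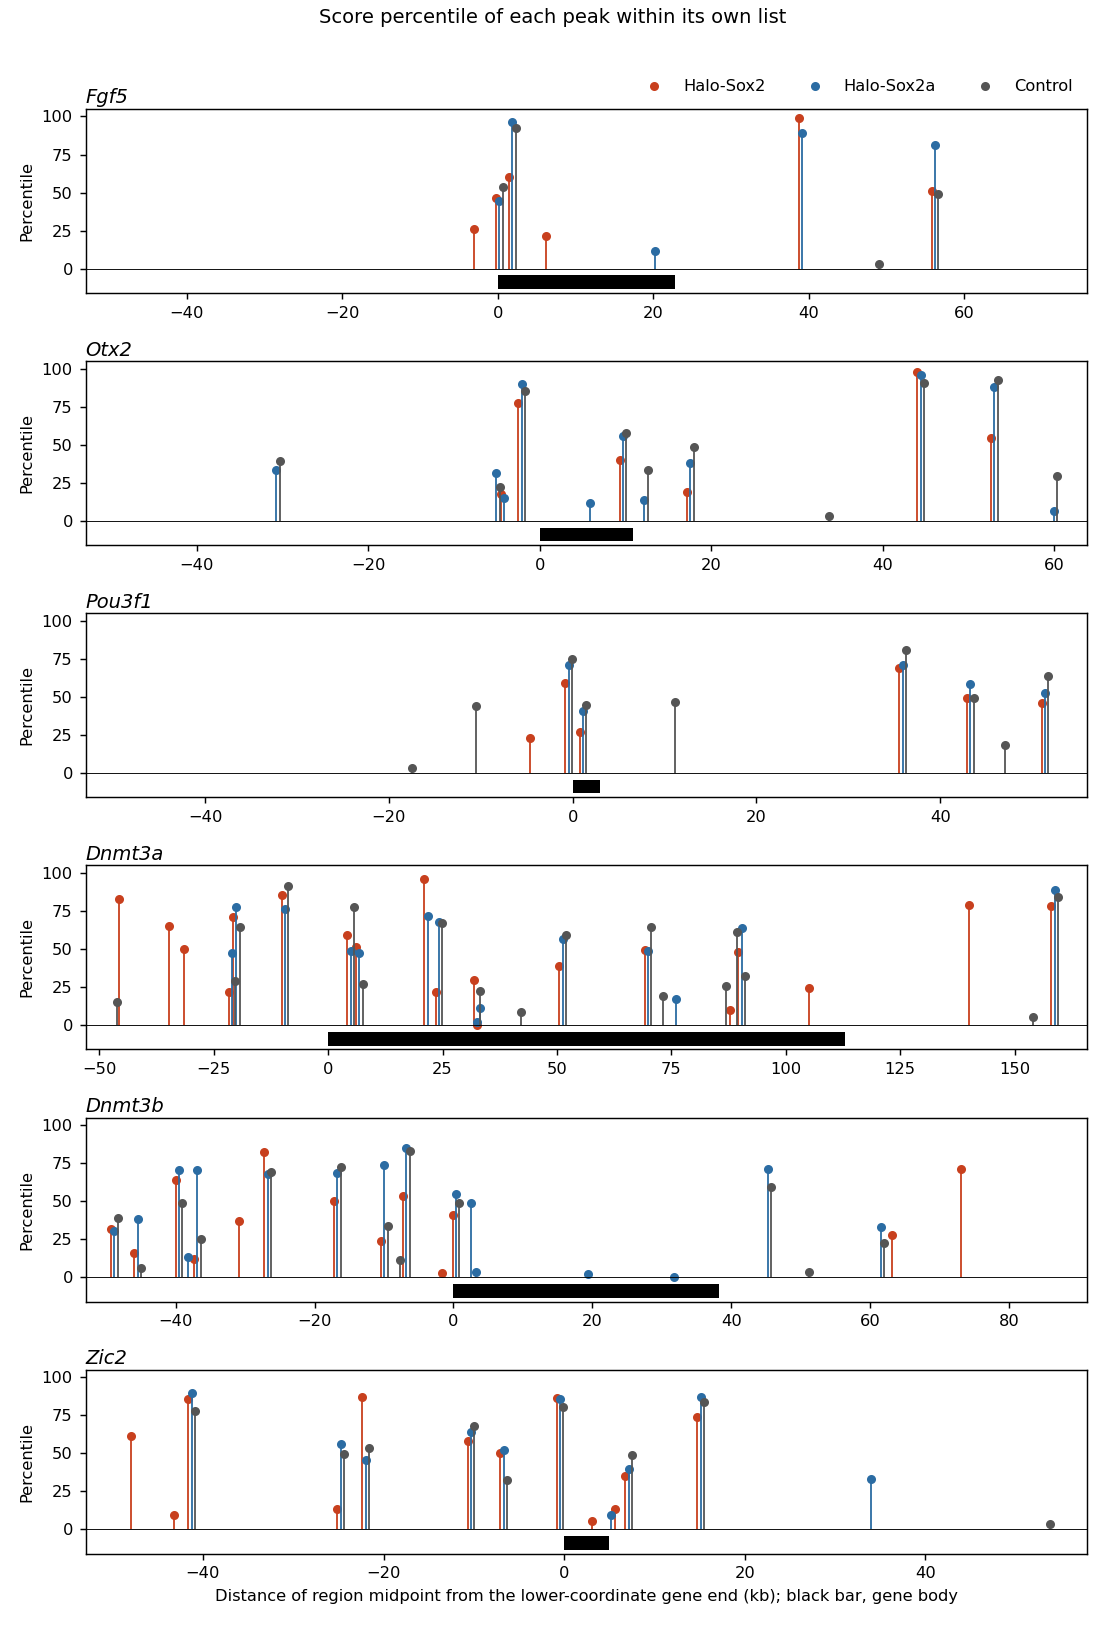
Percentile of the score of each peak within its own list (vertical axis, 0 to 100) against the distance of the region's midpoint from the lower-coordinate end of the gene (horizontal axis, kb), coloured by library. Stems of 1 region are set slightly apart so that they can be seen, and the black bar is the gene. The Fgf5 panel shows the region at 39.2 kb with both transgene stems and no control stem. The Zic2 panel shows the region at -22.0 kb with a tall Halo-Sox2 stem and a stem of each other library. Heights of different libraries cannot be set against each other, because the lists differ in length.

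Most gene ends were alike in the 3 lists, apart from the higher-coordinate end of Zic2. A peak lay within 1 kb of the lower-coordinate end of Fgf5, Pou3f1, Dnmt3b and Zic2 and of the higher-coordinate end of Otx2 in every list, and near neither end of Dnmt3a in any list. At Otx2 this was a region inside the gene (48665971 to 48666997), with scores of 114 with Halo-Sox2, 117 with Halo-Sox2a and 100 in the control, and shared percentiles of 28.6, 28.3 and 37.0. With Halo-Sox2 the shared percentile of the gene-end region was below the control for Otx2 and Pou3f1, above it for Zic2, and within 1.03 points of it for Fgf5 and Dnmt3b. Within 1 kb of the higher-coordinate end of Zic2 there were only low peaks, of score 48 with Halo-Sox2 and 31 with Halo-Sox2a, and none in the control list. Farther beyond that end lay regions of all 3 lists, the nearest from 122482120 to 122482967 with scores of 99, 75 and 80.

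**Figure D4:**
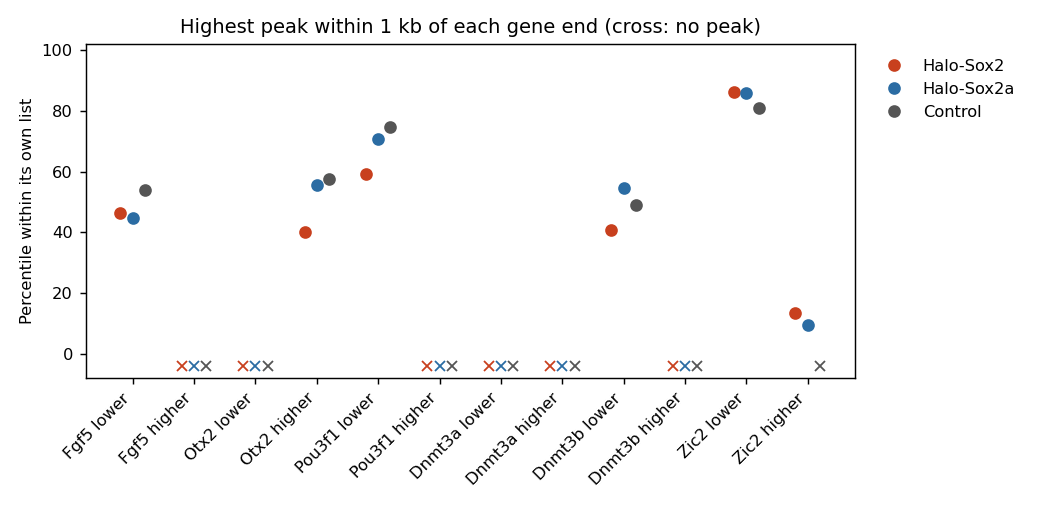
Percentile of the highest peak within 1 kb of the lower-coordinate and higher-coordinate end of each gene (horizontal axis), within its own list (vertical axis, 0 to 100), by library, with a cross where a list has no peak. Zic2 has the highest values, 86.3 with Halo-Sox2, 85.8 with Halo-Sox2a and 80.8 in the control, and Dnmt3a has no peak at either end.

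A longer list of 24 other genes of the formative and primed states, among them Fgf8, Etv4, Foxd3, Grhl2, Utf1, Lin28b, Nodal and Zic5, had 389 regions. Of these, 14 were also among the regions near Zic2, because Zic5 lies next to it. Near these genes, 98 regions were held by Halo-Sox2 without the control (25.2%), 86 by Halo-Sox2a without the control (22.1%) and 170 by all 3 lists (43.7%). Near 14 naive pluripotency genes, among them Nanog, Klf4, Esrrb and Tfcp2l1, the counts were 60 of 247 (24.3%), 67 (27.1%) and 94 (38.1%). Near the 6 genes the same shares were 21.7%, 15.2% and 44.6%. For Halo-Sox2a without the control, the 95% intervals were 9.29 to 23.9% near the 6 genes, 18.3 to 26.5% near the longer list and 22.0 to 33.0% near the naive genes. All 3 overlapped, which does not show that the shares are equal, and a difference between the sets was not tested. Regions of the control only made up 15.2%, 7.2% and 8.1%, against 10.2% of all regions. Among regions of all 3 lists, the median difference of Halo-Sox2a from the control was -1.12, 1.96 and 4.75 points in the same order, and that of Halo-Sox2 was -3.40, 0.47 and 0.06 points.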

How the data were processed

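ATAC-seq was measured in 3 libraries, 1 each of Halo-Sox2, Halo-Sox2a and control cells, grouped by their labels. The data are the peak lists deposited by the authors, 1 per library, with a score per peak deposited as a whole number of unstated scale (lowest 13). The submitters' processing notes name STAR, SAMtools, MACS2 3.0.0a7, deepTools 3.3.0, MACS3 and the build mm10, without roles. The caller's threshold and any shift for Tn5 are not given in the sources used here, and depth is unknown. The score served only to rank peaks within a list.

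Positions were made 1-based. Peaks overlapping by at least 1 bp were merged across lists, and a region was assigned to a gene when a peak midpoint lay within 50 kb. At the edge of this rule, the farthest peak taken was 49.1 kb and the nearest left out 50.3 kb from Otx2. Genes and start sites came from RefSeq tables of GRCm38.p6, the assembly that mm10 names, and all listed genes matched. No genome sequence was used here. Percentiles give tied scores their mean rank. Merging and ranking were tested on simulated data. Named regions were the one nearest each gene end, the highest-ranked of each class and those shifting by 20 points or more, and some others were chosen after their values were seen. The members and lists were chosen with earlier results of these data known. Intervals of shares are Wilson 95% and cover counting error only. Those of the median differences are 95% intervals over the 41 shared regions, taken as independent. Python 3.11.15 with pandas 2.3.3 and scipy 1.17.1 was used. The 8 alternatives covered overlap, list size, score minimum, distance and gene assignment.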

Additional observations from a re-analysis of the deposited data

How the results depend on the processing

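No paired analysis was possible because each group had 1 library. The 8 results over the 6 genes together were recomputed under 8 alternatives, and 47 of 64 values stayed within 1.5 times the main count or, for the median rank differences, within the 95% interval of the median. Those intervals are wide, and a median of -8.32 in place of -1.12 for Halo-Sox2a still lay inside. Counts of regions within 20 kb or 100 kb fall or rise with the distance by design. This tally is therefore a weak measure of stability. All 16 median differences kept their sign, with -8.30 to -3.21 for Halo-Sox2 and -8.32 to -0.86 for Halo-Sox2a. With lists of equal size they were -7.41 and -6.51, and above percentile 25 they were -4.42 and -6.34. The other 17 values were counts. Within 20 kb there were 55 regions in place of 92, 11 of Halo-Sox2 without the control, 11 and 9 of the control without Halo-Sox2 and Halo-Sox2a, and 24 in all 3 lists. Within 100 kb there were 150, 36 and 26 of Halo-Sox2 and Halo-Sox2a without the control, 34 of the control without Halo-Sox2, and 62 in all 3 lists. Counting only regions whose nearest protein-coding gene was one of the 6 gave 56 regions, 12 of Halo-Sox2 without the control, and 19 in all 3 lists (33.9%, close to the 32.1% of the genome, where the main share was 44.6%). By gene, these were 7 for Fgf5, 12 for Otx2, 6 for Pou3f1, 15 for Dnmt3a, 12 for Dnmt3b and 4 for Zic2. Above percentile 25, Halo-Sox2 without the control gave 12, Halo-Sox2a without the control 7 and the control without Halo-Sox2a 6 (9.38%, against 10.8% over the genome). With lists of equal size, Halo-Sox2a without the control gave 7. The share of Halo-Sox2 without the control lay between 17.3% and 24.0% under all 8 alternatives, below the genome share of 28.6% to 34.9% under each. The share of Halo-Sox2a without the control rose to 21.8% within 20 kb and 21.4% by nearest gene, against 21.2% over the genome. Unknown depth limits every statement on a missing peak.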
